A study of Mus musculus with 6 samples.

Results

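The RGK family of small GTPases and the calcium channel beta subunits are 2 groups of interacting proteins, and the genes were chosen by symbol: Rrad, Gem, Rem1 and Rem2 for the RGK family, and Cacnb1, Cacnb2, Cacnb3 and Cacnb4 for the beta subunits. Of these 8 genes, 7 have a row among the 13724 gene entries of the table, and all 7 passed the filter on low values described below. Rem1, an RGK member known from heart, has no row in the table, so its expression was not analysed here. The choice was made with the difference between immunoprecipitate and input in view, so the values of that difference are given for these 7 genes as a description, and how many pass the test over all genes is given as a count from which nothing is read.

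Voltage-gated calcium channels let calcium into a neuron when it fires. The pore is formed by an alpha1 subunit, and a cytoplasmic beta subunit binds it, brings the channel to the membrane and tunes its gating. RGK proteins bind beta subunits and channels and inhibit the calcium current, and transcription of several of them is known to be induced by activity or calcium entry. In neurons, Rem2 is also known for effects on synapses and dendrites.

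The samples came from wild type C57Bl6/J mice that were exposed to warmth, in 3 numbered warm challenges. The anterior hypothalamus was dissected from 0.5 mm brain sections, and each sample is labelled as preoptic neurons. Each challenge gave 1 immunoprecipitate (IP), the RNA bound to ribosomes whose protein S6 is phosphorylated at sites 244 and 247, and 1 input, the total RNA, so that there were 3 IP and 3 input libraries. Phosphorylation of S6 follows neuronal activity, which is the basis of this method (PhosphoTRAP). No group at another temperature was analysed here, so a difference between IP and input is not tied to warmth, and the number of animals behind a library is not given in the sources used here.

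All levels below are RPKM (reads scaled to gene length and library size), so values of different genes are set side by side per length. Summed RPKM ranged from 374708 to 496125 per library. Of the 8 neuronal markers looked for, 6 were listed, with a summed level of 3294 to 6897 RPKM in IP and 4036 to 5516 RPKM in input. All 8 markers of the preoptic area and anterior hypothalamus were listed, with a summed level of 387 to 437 RPKM in IP and 141 to 299 RPKM in input. At an adjusted p under 0.05 (limma), 0 of the 6 tested among these and 0 of the 6 neuronal markers passed. Oligodendrocyte markers were lower in IP (8 of 10 passed, beside 3.29% of all genes tested). Their summed level was 373 to 554 RPKM in IP against 1105 to 1219 RPKM in input. Erythroid markers were higher in IP (3 of 3 tested passed, of 5 in the list, beside 0.892% of all genes tested). Their summed level was 202 to 567 RPKM in IP against 14.1 to 50.3 RPKM in input. These are shifts between the fractions of a warm challenge and give no count of cells of a type. The part of these shifts in the results below was not tested. Of 7 striated muscle markers, a tissue in which Rrad and Cacnb1 are known to be abundant, 5 had no row and the other 2 summed to 4.65 to 7.22 RPKM in IP and 5.37 to 9.69 RPKM in input.

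Promoter windows, from 250 bases before to 50 bases after a gene's start in RefSeq (build GRCm38.p6), were on hand for 6 of the 8 genes, all but Rrad and Gem, as 11 windows. Of these, 3 are printed, written 5′ to 3′ on the strand of the gene with matches to the motifs in capitals. Rem2, the RGK gene with both expression values and a window, starts on chromosome 14, plus strand (chr14:54475850-54476149). For Cacnb2, 2 alternative starts on chromosome 2, plus strand, are set side by side (chr2:14604056-14604355 upstream and chr2:14823842-14824141 downstream), since a gene-level RPKM value does not separate them.
Rem2: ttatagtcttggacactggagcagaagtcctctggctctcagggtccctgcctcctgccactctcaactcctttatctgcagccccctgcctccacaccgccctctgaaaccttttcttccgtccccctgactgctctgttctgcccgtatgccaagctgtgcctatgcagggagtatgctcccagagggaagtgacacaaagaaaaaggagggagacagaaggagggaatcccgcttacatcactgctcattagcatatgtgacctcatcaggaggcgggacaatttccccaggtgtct
Cacnb2 upstream start: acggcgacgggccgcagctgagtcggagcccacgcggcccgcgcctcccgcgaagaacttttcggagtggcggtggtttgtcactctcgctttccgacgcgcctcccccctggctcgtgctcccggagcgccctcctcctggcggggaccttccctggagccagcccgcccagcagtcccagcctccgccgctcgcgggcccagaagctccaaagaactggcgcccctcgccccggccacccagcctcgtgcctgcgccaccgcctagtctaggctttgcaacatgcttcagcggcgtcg
Cacnb2 downstream start: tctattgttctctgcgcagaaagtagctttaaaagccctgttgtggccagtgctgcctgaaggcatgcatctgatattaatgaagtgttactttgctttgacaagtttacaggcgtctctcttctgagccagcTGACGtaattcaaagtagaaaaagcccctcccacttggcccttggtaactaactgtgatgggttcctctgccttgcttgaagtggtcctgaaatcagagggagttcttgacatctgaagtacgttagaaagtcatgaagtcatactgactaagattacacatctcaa
The motifs searched on both strands were the full cAMP response element TGACGTCA, its short core TGACG (which every full element contains), the AP-1 site TGANTCA and the serum response factor's CArG box, all bound by factors of activity-dependent transcription. The short core was in 2 of the 11 windows, that of the downstream Cacnb2 start and that of Rem1, and the other motifs were in 0 of 11. Among all 32851 promoter windows of the same length, 20.8% held the short core, 1.79% the full element, 7.81% the AP-1 site and 1.63% the CArG box. The upstream Cacnb2 window had a GC content of 71.7% with 35 CpG dinucleotides, against 44.0% with 4 in the downstream window, and the Rem2 window had 54.7% with 5. Such a match is a description of letters and shows no binding.

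Rrad and Gem stood far above their input levels in IP, Rem2 did so mainly in warm challenge 3, and the IP and input values of each beta subunit gene overlapped. Rrad, an RGK GTPase that inhibits L-type calcium channels in heart and muscle, was at 102, 90.3 and 31.7 RPKM in IP 1, 2 and 3 and at 9.60, 6.72 and 3.04 RPKM in input 1, 2 and 3. The lowest IP value was above the highest input value, and the library of warm challenge 3 was the lowest of both fractions. Mean levels were 74.7 ± 37.6 RPKM in IP and 6.45 ± 3.28 RPKM in input (SD, n = 3 each), an 11.6-fold ratio of the means. The log2 fold on the log2(RPKM + 1) scale, used for every log2 fold here, was 3.29 (SE 0.47), and 1 of the 12328 genes tested had a higher one.

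Within a warm challenge, the ratio of IP to input for Rrad varied less than its level. It was 10.6, 13.4 and 10.4 in challenges 1, 2 and 3, so that the highest ratio was 1.29 times the lowest, while the highest level was 3.21 times the lowest among IP libraries and 3.15 times among inputs. Rrad thus differed about as much between challenges in total RNA as in bound RNA.

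Gem, an RGK GTPase first described as induced in activated T cells, was at 31.6, 11.9 and 11.5 RPKM in IP 1, 2 and 3 and at 3.20, 3.34 and 1.81 RPKM in input 1, 2 and 3. IP 1 was the highest library, and the fractions did not overlap. Mean levels were 18.3 ± 11.5 RPKM in IP and 2.78 ± 0.845 RPKM in input (SD, n = 3 each), with a log2 fold of 2.23 (SE 0.38), and 18 genes had a higher fold. The ratio within a challenge was 9.88, 3.57 and 6.35, a spread of 2.77 times, wider than that of Rrad.

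Rem2, the RGK member best known from brain, was at 4.97, 4.46 and 17.1 RPKM in IP 1, 2 and 3 and at 2.28, 2.40 and 3.32 RPKM in input 1, 2 and 3. The fractions did not overlap, but IP 3 stood far above the other two IP libraries, in the challenge where Rrad was lowest. Mean levels were 8.84 ± 7.15 RPKM in IP and 2.67 ± 0.568 RPKM in input (SD, n = 3 each). Its log2 fold was 1.20 (SE 0.42), and it was 0.65 without IP 3. The ratio within a challenge was 2.18, 1.86 and 5.15.

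**Figure D1:**
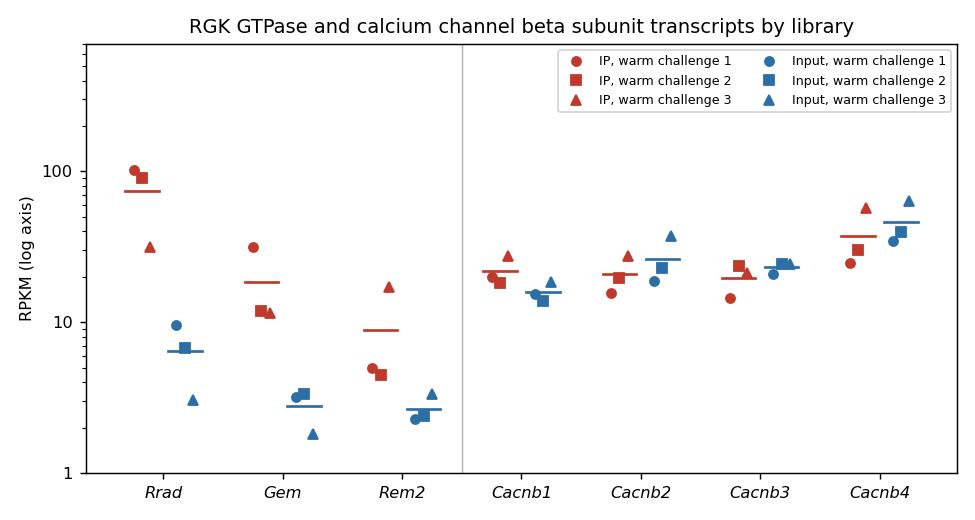
RPKM (log axis) of the 7 listed genes in each library, IP in red to the left of input in blue, with 1 symbol shape per warm challenge and a bar at each group's mean of 3 libraries. All IP values of Rrad, Gem and Rem2 lie above all their input values, while the fractions overlap for each beta subunit gene.

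The beta subunit genes were at similar levels in both fractions. Cacnb1, the beta subunit of skeletal muscle excitation-contraction coupling that is also made in brain, was at 20.0, 18.2 and 27.4 RPKM in IP 1, 2 and 3 and at 15.5, 13.9 and 18.5 RPKM in input 1, 2 and 3. The ranges overlapped, since input 3 was above IP 2, but within each challenge the IP value was the higher one, at 1.29, 1.31 and 1.49 times the input. Its log2 fold was 0.42 (SE 0.23), and 1285 genes had a higher one.

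Cacnb2, the main beta subunit of the heart, was at 15.5, 19.8 and 27.5 RPKM in IP 1, 2 and 3 and at 18.7, 22.9 and 37.3 RPKM in input 1, 2 and 3. Cacnb3, a beta subunit common in neurons and smooth muscle, was at 14.5, 23.5 and 21.1 RPKM in IP 1, 2 and 3 and at 21.0, 24.2 and 24.4 RPKM in input 1, 2 and 3. Cacnb4, the beta subunit whose loss causes the seizures and ataxia of the lethargic mouse, was at 24.8, 30.1 and 57.0 RPKM in IP 1, 2 and 3 and at 34.7, 39.3 and 63.7 RPKM in input 1, 2 and 3. For each of these 3 genes the ranges of the fractions overlapped, while the IP value was below the input value of its own challenge in all 3 challenges. Cacnb2 and Cacnb4 were highest in challenge 3 in both fractions.

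The differences of these 3 genes were close to that of the whole table. Their log2 folds were -0.30 (SE 0.30) for Cacnb2, -0.25 (SE 0.23) for Cacnb3 and -0.33 (SE 0.35) for Cacnb4, beside a median of -0.18 over all genes tested. Relative to that median they were -0.12, -0.07 and -0.15 in the same order, while Cacnb1 was 0.60 above it. As a group, the 3 listed RGK genes had a median log2 fold of 2.23 and the 4 beta subunit genes one of -0.27.

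**Figure D2:**
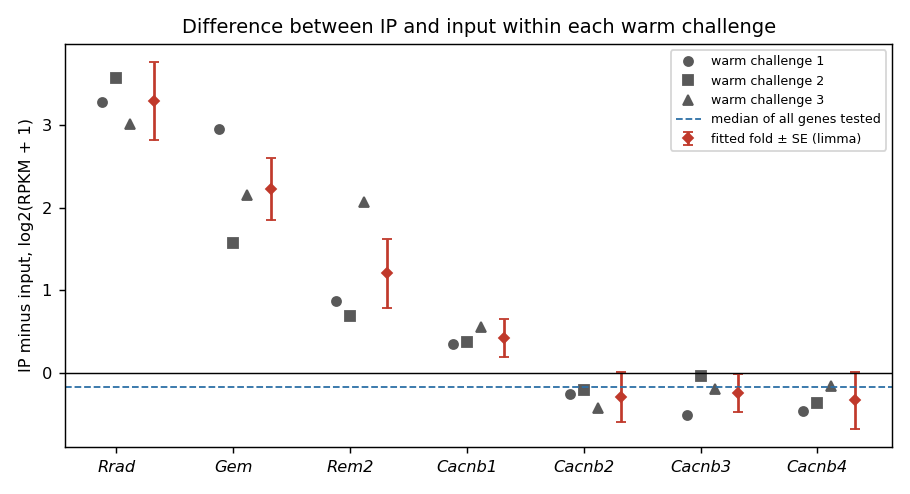
Difference of IP minus input in log2(RPKM + 1) for each of the 3 warm challenges (grey symbols) and the fitted log2 fold with its SE (red diamonds) for the 7 listed genes, with the median of all genes tested (-0.18) as a dashed line. Rrad lies between 3.02 and 3.56 in every challenge, Cacnb1 lies above 0 in all 3, and Cacnb2, Cacnb3 and Cacnb4 lie below 0 in all 3.

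Rrad and Gem, 2 of the 7 genes (28.6%), passed an adjusted p of 0.05 for IP against input (limma, Benjamini-Hochberg over all genes tested), and both were higher in IP. Among all genes tested, 516 of 12328 passed (4.19%), of which 110 were higher in IP (0.892%) and 406 lower (3.29%). Without overlap between the fractions and with IP above input stood 3 of the 7 genes, against 6.85% of all genes tested, and 0 of the 7 had all IP values below all input values, against 23.5%. Nothing is read from these counts, because the genes were put forward with this difference in view. Leaving out 1 library changed the number that passed to 1 without input 1 (Rrad) and to 0 without input 2 or input 3, where 35, 21 and 39 genes of the whole table passed.

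Input levels, which enter the difference in view when the genes were chosen and are given as a description, ordered the genes as Cacnb4 (45.9 ± 15.6 RPKM), Cacnb2 (26.3 ± 9.72), Cacnb3 (23.2 ± 1.90), Cacnb1 (15.9 ± 2.32), Rrad (6.45 ± 3.28), Gem (2.78 ± 0.845) and Rem2 (2.67 ± 0.568; mean ± SD, n = 3). Neighbours in this order overlapped in their ranges, apart from Cacnb3 and Cacnb1, whose ranges were 21.0 to 24.4 and 13.9 to 18.5 RPKM, and Cacnb1 and Rrad, since Rrad reached 9.60 RPKM. Every beta subunit gene was above every RGK gene in each input library. In IP the order of the means was Rrad (74.7), Cacnb4 (37.3 ± 17.3), Cacnb1 (21.9 ± 4.87), Cacnb2 (20.9 ± 6.09), Cacnb3 (19.7 ± 4.70), Gem (18.3) and Rem2 (8.84), and the ranges of all neighbours overlapped. Rrad was the highest of the 7 genes in IP 1 and IP 2, while Cacnb4 was the highest in IP 3.

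Summed over the family, the listed RGK genes held 139, 107 and 60.3 RPKM in IP 1, 2 and 3 and 15.1, 12.5 and 8.18 RPKM in input 1, 2 and 3. The beta subunit genes together held 74.8, 91.7 and 133 RPKM in IP 1, 2 and 3 and 89.9, 100.4 and 144 RPKM in input 1, 2 and 3. The ratio of the RGK sum to the beta subunit sum was therefore 1.85, 1.16 and 0.453 in IP and 0.168, 0.124 and 0.0569 in input. This ratio of transcript levels was lowest in challenge 3 in both fractions, and it says nothing of the ratio of the proteins.

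Within the RGK sum, Rrad took 73.6%, 84.6% and 52.6% in IP 1, 2 and 3 and 63.6%, 53.9% and 37.2% in input 1, 2 and 3. Rem2 took 3.59%, 4.18% and 28.3% in IP and 15.1%, 19.3% and 40.6% in input, so that challenge 3 had the highest Rem2 share in both fractions. The makeup of the beta subunits varied less. Cacnb4 took the highest share of the beta subunit sum in every library, from 32.9% to 42.8% in IP and from 38.6% to 44.3% in input. Cacnb1 took 26.8%, 19.9% and 20.6% in IP 1, 2 and 3 and 17.2%, 13.8% and 12.8% in input 1, 2 and 3, ranges that did not overlap, whereas those of the other 3 subunits did.

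**Figure D3:**
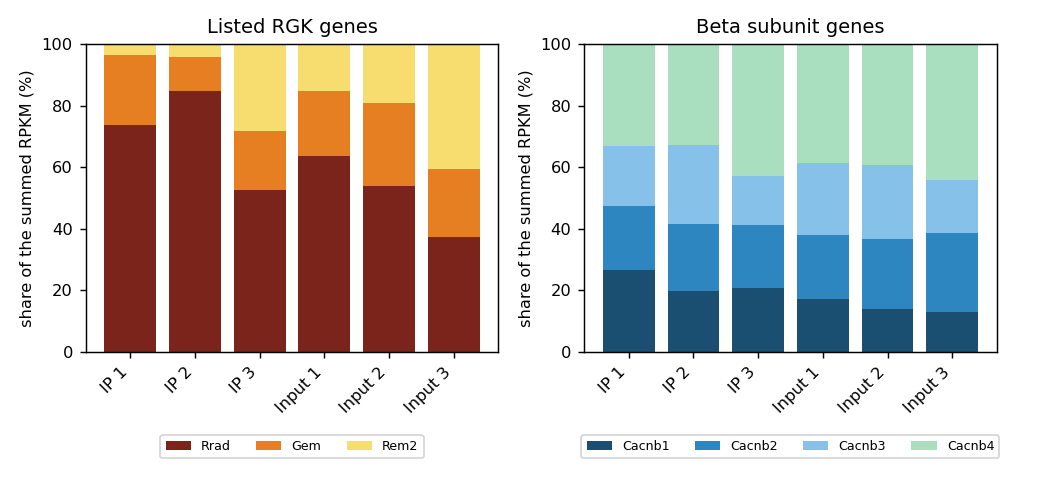
Share of the summed RPKM taken by each listed RGK gene (left) and each beta subunit gene (right) in the 3 IP libraries and the 3 input libraries, with shares adding to 100%. Rrad takes between 52.6% and 84.6% of the RGK sum in IP, and Cacnb4 takes the highest beta subunit share in all 6 libraries.

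Across the 6 libraries, levels on the log2(RPKM + 1) scale moved most alike for Rrad and Gem (Pearson r = 0.95), Rem2 and Cacnb1 (0.96), and Cacnb2 and Cacnb4 (0.96). These correlations describe 6 libraries that share 2 fractions and 3 challenges, and the libraries of each fraction stand together for Rrad and Gem. Outside the family, the genes with the most similar pattern to Rrad were Crem, a cAMP-responsive transcription factor (r = 0.997), Otud5 (0.996) and Lars2 (0.994). Likeness in r is not likeness in size, since the log2 fold was 2.11 for Crem and 0.36 for Otud5. Nearest to Gem were Slc27a4 (0.994), Tuba4a (0.989) and Rasd1 (0.988), and nearest to Rem2 were Pdyn, the prodynorphin gene (0.990), Cpsf3 (0.984) and Fut8 (0.983). Among those nearest to Cacnb1 were Bai2 (0.999) and the NMDA receptor subunit gene Grin2b (0.992). Cacnb2 was most like Dab1, Pde4b and Kctd12 (0.993 to 0.994), Cacnb3 most like Hey1, Hemk1 and Ube2e3 (0.984 to 0.987), and Cacnb4 most like Grem1, Fam168a and 1600012H06Rik (0.993 to 0.994). All were picked as the highest r among the genes tested, over only 6 libraries. Every family gene tested had its 3 nearest genes at 0.983 or above, so a high r sets none of them apart.

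A list of 22 other voltage-gated calcium channel subunit genes (pore-forming, alpha2delta and gamma) gave 0 higher and 0 lower calls among 17 tested (limma). Over all genes tested, 0.892% passed as higher and 3.29% as lower. At an unadjusted p under 0.05 (limma) stood 3 of the 17, beside 3005 of the 12328 genes tested. The median log2 fold of the 17 was 0.33, beside -0.18 over all genes tested, and 13 were positive. This median was 0.22 without IP 1, 0.45 without IP 2, 0.20 without IP 3 and 0.18 without input 2. It was 0.17 with a pseudocount of 5, 0.50 after median scaling and 0.58 after quantile normalization. Cacna1a, the pore subunit of P/Q-type channels at synapses, was at 8.08, 5.97 and 9.44 RPKM in IP 1, 2 and 3 and at 3.84, 3.62 and 5.42 RPKM in input 1, 2 and 3. All its IP values were above all its input values (log2 fold 0.73, SE 0.25, adjusted p = 0.112, limma). Cacng2 (stargazin) was at 16.9, 27.0 and 42.4 RPKM in IP 1, 2 and 3 and at 13.6, 12.5 and 15.4 RPKM in input 1, 2 and 3, again without overlap (log2 fold 0.92, SE 0.31, adjusted p = 0.114, limma).

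By class, 7 of 8 pore subunit genes, 2 of 3 alpha2delta genes and 4 of 6 gamma genes had a positive fold. The class medians of the log2 fold were 0.26, 0.097 and 0.76 in the same order. The gamma genes ran from -0.42 to 0.99, and no difference between classes was tested. The exception among pore subunits was Cacna1d, an L-type channel gene, with a log2 fold of -0.44 (SE 0.22, adjusted p = 0.260, limma), named after its value was seen. The gamma genes with the highest folds, Cacng7, Cacng2 and Cacng8, are known mainly as auxiliary subunits of AMPA receptors. Without IP 1 these 3 passed the threshold, the only members of the channel list to do so in any of the 6 omissions. IP 1 was the lowest IP library for each of them, whereas it was the highest for Rrad and Gem.

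**Figure D4:**
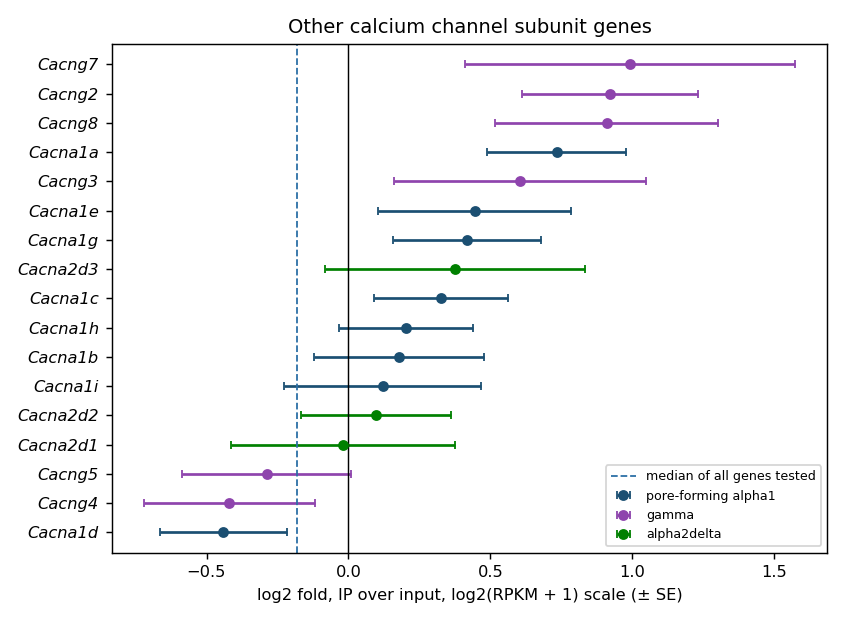
Log2 fold of IP over input with its SE for the 17 tested pore-forming, alpha2delta and gamma subunit genes, with the median of all genes tested (-0.18) dashed. Folds run from -0.44 for Cacna1d to 0.99 for Cacng7, and 13 of the 17 lie above 0.

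Among proteins described as binding RGK proteins, beta subunits or the channel complex, 0 of 25 tested entries were higher and 1 was lower. Over all genes tested, 0.892% passed as higher and 3.29% as lower. Rims1 holds more than 1 of these entries. The median log2 fold of the 25 entries was -0.19, beside -0.18 over all genes. Akap7, which anchors protein kinase A at L-type channels, was at 4.49, 5.34 and 6.54 RPKM in IP 1, 2 and 3 and at 19.8, 19.4 and 16.1 RPKM in input 1, 2 and 3. The fractions were far apart (log2 fold -1.60, SE 0.22, adjusted p = 0.0122, limma), and this call ended without input 1 or input 2.

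Among the other GTPases of the Ras branch, 2 of 27 tested were higher in IP, 1 was lower and 24 did not pass. Over all genes tested, 0.892% passed as higher and 3.29% as lower. The median log2 fold of the 27 was -0.20, beside -0.18 over all genes tested, and it was 0.01 without IP 1 and -0.13 without input 3. Rasd1 (Dexras1), a GTPase induced by dexamethasone, was at 41.2, 14.1 and 8.26 RPKM in IP 1, 2 and 3 and at 2.84, 2.68 and 1.41 RPKM in input 1, 2 and 3. Its IP 1 value was the highest, as for Gem, and its log2 fold was 2.48 (SE 0.48, adjusted p = 0.0326, limma). Rras2, a relative of R-Ras, was at 7.43, 21.4 and 21.8 RPKM in IP 1, 2 and 3 and at 4.55, 5.30 and 3.66 RPKM in input 1, 2 and 3 (log2 fold 1.58, SE 0.37, adjusted p = 0.0492, limma). Here IP 1 was the lowest IP library. Rras, R-Ras itself, was at 1.51, 1.67 and 0.958 RPKM in IP 1, 2 and 3 and at 3.50, 3.88 and 4.49 RPKM in input 1, 2 and 3 (log2 fold -1.07, SE 0.22, adjusted p = 0.0361, limma). The call of Rasd1 ended without IP 2 or any 1 input, and those of Rras2 and Rras in 5 of the 6 omissions, all but that of IP 1. After median scaling neither Rras2 nor Rras passed. Rras2 also lost its call with a pseudocount of 0.1 or 5, with no filter and with no trend, and Rras lost it after quantile normalization.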

How the data were processed

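Per the file headers, the authors deposited linear RPKM values per gene, 1 column for each library. The submitters' processing notes name build mm9. No aligner, counting tool or annotation is named in the sources used here. Per the labels' protocols, cDNA was amplified before library preparation, which can shift single transcripts. The smallest value listed is 0.101 RPKM, and RPKM gives no read totals, so the precision set by depth is unknown. All 8 symbols matched the gene name table.

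A filter kept 12328 genes that reached 1 RPKM in at least 3 libraries, and log2(RPKM + 1) was taken, which understates folds of low genes. IP and input (3 libraries each) were compared with limma 3.58.1 in R 4.3.3 (mean-variance trend, two-sided, no block, Benjamini-Hochberg adjustment, threshold 0.05), a fit that was tested on simulated data. Nothing in the labels says that libraries come from separate animals, so p-values set each difference against the spread between these libraries. With no block, that spread includes differences between warm challenges. Plots used Python 3.11.15 and matplotlib 3.10.9.

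IP and input of 1 number share a warm challenge in the labels and were taken as paired on that ground. Their deviations from the group means correlated across genes by 0.05, 0.61 and 0.27 for numbers 1, 2 and 3. Between unlike numbers the correlation ran from -0.52 (IP 2 with input 3) to 0.18 (IP 1 with input 3). IP 1 was thus closer to input 3 than to input 1, so the ratios within challenge 1 rest on the labels alone. The family, gene lists and tests were chosen with earlier results of these data known. Named from each list were the members past the threshold or, with no call, the 2 of lowest p, and for each gene of the family the 3 genes of highest r. Not every item so named is not reported here. Others were named after their values were seen. Alternatives were pseudocounts of 0.1 and 5, no filter, a filter of 5 RPKM, median scaling, quantile normalization, no trend, a replicate block and leaving out each library.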

Additional observations from a re-analysis of the deposited data

How the results depend on the processing

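Rrad, Gem, Rem2 and Cacnb1 kept a positive fold and Cacnb2, Cacnb3 and Cacnb4 a negative one in every alternative in which they were tested. Rem2 was not tested with a filter of 5 RPKM. With a pseudocount of 5 the RGK median log2 fold was 1.49. After median scaling, with a median of -0.01 over all genes in place of -0.18, the beta subunit median was -0.10, 217 genes of the whole table passed (114 higher, 103 lower) and 1 other Ras-family GTPase did. Quantile normalization gave 253 (129 higher, 124 lower), against 516 (110 higher, 406 lower) as reported. With the warm challenge as a replicate block 656 genes passed, Rrad and Gem among them, and the block changed no call in the family or the 3 lists. Leaving out 1 library gave 21 to 1693 genes of the whole table (1693 without IP 1), 0 to 2 of the family, 0 to 3 channel subunits, 0 to 2 partners and 0 to 6 Ras-family GTPases. It gave an RGK median of 1.77 to 2.47 and a beta subunit median of -0.41 to -0.050. Every omission left 1 library fewer, also that of IP 1 with its 1693 genes, and the cause of these changes was not tested.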
